A study of Mus musculus with 30 samples.

Results

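The response of activated WT CD8 T cells to TGFB1 was read from 5 RNA-seq libraries of WT cells cultured with TGFB1 and 5 libraries of WT cells cultured without added cytokine. These 10 of the 30 libraries of the study were taken by their labelled genotype and treatment alone, and were compared across the 11718 of 55573 genes in the raw count table that passed a filter on low counts. All libraries started from naive CD8+ T cells of C57BL/6 mice aged 8 weeks, purified by magnetic sorting from spleen and lymph nodes. Both groups were activated for 3 days in serum-free X-VIVO 20 medium on plate-bound antibodies to CD3 and to CD28, 5 µg/ml of each, which stand in for antigen and for costimulation. The first group also received recombinant TGFB1 at 0.5 ng/ml, and the second received no cytokine. Each group holds the numbers 62, 67, 71, 72 and 75, of which 62 is labelled male and the other 4 female, and values below are given in that order. The other 20 libraries are WT cells with IL12 (10 ng/ml, the same 5 numbers) and Furin KO cells without added cytokine, with TGFB1 and with IL12, for which the labels do not say how the gene was deleted. The labels do not say that the numbers are separate animals, so p-values below measure the spread between libraries. In the tests of genes, that spread was estimated within the 6 groups of all 30 libraries, not from the 10 compared alone. Standard errors and p-values of a gene therefore also reflect its scatter in the other groups.

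TGFB1 is a secreted cytokine that binds a type II receptor kinase, which activates a type I receptor kinase, which in turn phosphorylates the transcription factors SMAD2 and SMAD3. These join SMAD4 and act on target genes, among which are inhibitors of the same pathway. In CD8 T cells TGFB1 is known for restraining killing and growth and for inducing the integrin chain CD103, which holds T cells in epithelia.

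Promoters of genes that rose with TGFB1 are shown because SMAD proteins are known to bind the short box GTCTG or its complement CAGAC. The list of SMAD feedback genes and direct targets has 11 members that rose, and 5 of them have an entry in the RefSeq promoter table (GRCm38.p6). Genes on the chromosome of Smad7 were left out of the choice. Of the rest with an entry, the 3 with the largest rises are printed, from 250 bases before to 50 after a start in that table. Nt5e lies at chr9:88327359-88327658 on the plus strand, Tsc22d1 at chr14:76414711-76415010 on the plus strand and Ski at chr4:155222486-155222785 on the minus strand. The start used for Nt5e lies 412 bases inside the gene as GENCODE annotates it, so that the whole window printed for Nt5e is within the gene. The table holds 5 promoters of Tsc22d1, and the one at the GENCODE start is shown. Capitals mark each GTCTG or CAGAC.
Nt5e: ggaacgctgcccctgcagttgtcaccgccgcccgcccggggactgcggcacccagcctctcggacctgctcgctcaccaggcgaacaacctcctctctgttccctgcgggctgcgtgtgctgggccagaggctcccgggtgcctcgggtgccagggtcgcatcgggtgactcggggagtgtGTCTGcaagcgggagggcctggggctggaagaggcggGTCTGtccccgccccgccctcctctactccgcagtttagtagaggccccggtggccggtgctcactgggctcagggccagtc
Tsc22d1: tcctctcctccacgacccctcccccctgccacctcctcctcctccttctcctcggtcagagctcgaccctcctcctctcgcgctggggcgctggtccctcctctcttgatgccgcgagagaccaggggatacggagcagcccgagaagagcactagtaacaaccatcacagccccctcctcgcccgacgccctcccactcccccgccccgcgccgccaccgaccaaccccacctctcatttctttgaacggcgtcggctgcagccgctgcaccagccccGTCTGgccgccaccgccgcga
Ski: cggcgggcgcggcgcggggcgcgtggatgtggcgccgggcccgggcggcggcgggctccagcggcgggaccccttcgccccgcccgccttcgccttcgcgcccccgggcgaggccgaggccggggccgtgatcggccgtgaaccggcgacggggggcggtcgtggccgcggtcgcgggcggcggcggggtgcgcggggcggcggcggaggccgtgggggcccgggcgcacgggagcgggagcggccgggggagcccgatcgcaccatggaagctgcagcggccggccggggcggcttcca
The Nt5e window holds 2 such boxes, the Tsc22d1 window 1 and the Ski window 0. On either strand the box is present in 49.6% of the 32851 promoters in the table, and 16.2% hold 2 or more, so a match in such a window is a description and no binding site.

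The count tables held 8553822 to 11435315 counts per library with TGFB1 and 8362026 to 9875726 without. The cells expressed the CD8 T-cell markers in every library: the 13 listed genes summed to 6291 to 8483 counts per 1000000 counts of the library (CPM) with TGFB1 and 6078 to 6579 CPM without. On the first principal component of the 10 libraries, which held 54.2% of the variance, library 62 with TGFB1 stood apart at -9.21, while the other 4 with TGFB1 lay at 29.8 to 46.9 and those without at -39.8 to -15.2. On the second component, with 13.4% of the variance, it lay at 40.8. Of 663 genes that rose at least 2-fold in the other 4 libraries, 40.9% stood in library 62 within the range of the libraries without cytokine, and of 308 that fell at least 2-fold, 53.9% did. For any other library with TGFB1 held out in the same way, these shares were 4.27% to 12.3%. Library 62 is the only one with TGFB1 from a male, so sex and this library cannot be told apart within the group. Results are therefore given with all 10 libraries, and for some genes also without library 62. A rise or fall given without its value in each library need not hold in library 62. That library stood within the range of those without cytokine in, for example, Cxcr6, Il18r1, Cd27, Btg2 and Cdkn1b. Among the libraries without cytokine, 71 lay nearest to those with TGFB1, at -15.2 on the first component.

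**Figure D1:**
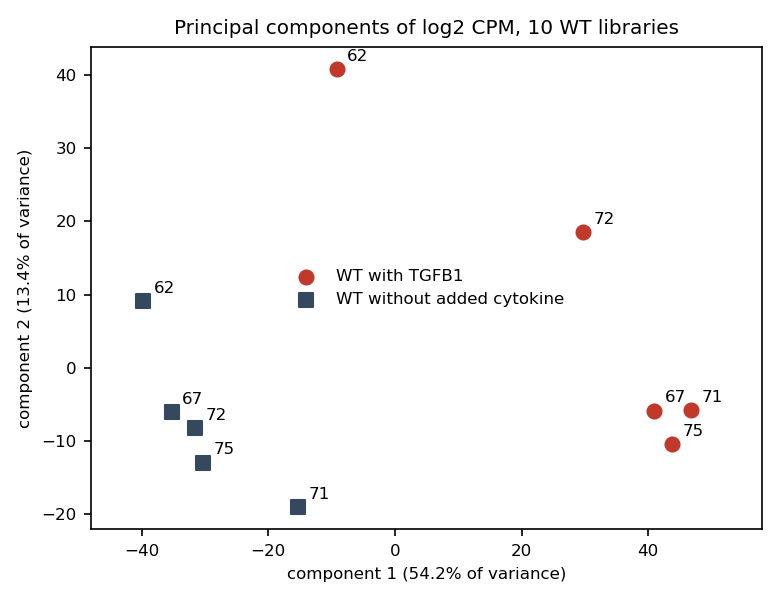
Principal components 1 and 2 of log2 CPM for the 10 WT libraries, one point per library labelled by its number. Library 62 with TGFB1 lies at -9.21 on component 1 and 40.8 on component 2, away from the other 4 libraries with TGFB1, at 29.8 to 46.9 on component 1.

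Over the whole transcriptome, 4439 of 11718 genes (37.9%) differed with TGFB1 at an adjusted p below 0.05. Of these, 2255 (19.2% of those tested) were higher and 2184 (18.6%) were lower. The test is edgeR's quasi-likelihood test with Benjamini-Hochberg adjustment over all tested genes, and "rose", "fell" and "called" refer to it throughout. Changes are log2 fold changes, TGFB1 over no cytokine, with their standard error (SE), unless a fold is named. Most changes were small, since 2278 of the called genes moved by less than 0.5 on the log2 scale and the median over all tested genes was 0.02. The large changes were mostly rises: 718 genes (6.13%) were called and changed at least 2-fold, 536 up and 182 down, and at 8-fold the numbers were 55 and 8. In 1738 genes (14.8%) the 5 values of one group did not overlap with the 5 of the other, 945 with all TGFB1 libraries higher. Without library 62, 5373 of 11856 genes were called, 4324 of them also called with it, and 684 rose and 314 fell at least 2-fold. Genes that rose had a median of 16.9 CPM without cytokine and those that fell 76.5 CPM, against 28.8 CPM for all tested genes. Their median exon lengths were alike, 4380 and 4288 bases. Of the 2255 genes that rose, 70 are annotated as long noncoding RNAs, of the 2184 that fell, 32, and of all 11718 tested, 349.

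By the size of the change, the 10 largest rises among genes reaching a mean of 4 CPM were those of Igha, Maf, Pdpn, Il17f, Itgae, Nt5e, Jup, Cyp1a1, Ccr6 and Ccr8. The 10 largest falls were those of Gzmb, Selp, Gm2762, Tgm1, Gm17767, Spp1, Metrnl, Itih5, Eomes and BC035044. Pdpn, the membrane glycoprotein podoplanin, had 2.69, 6.37, 6.18, 11.9 and 4.32 CPM with TGFB1, against 0.111, 0.103, 0, 0 and 0 CPM without. Its 318 summed counts with TGFB1 against 2 without give a ratio of 144 after scaling to depth, with a 95% exact interval for counting error of 39.4 to 1190. Jup, the junction protein plakoglobin, had 1.34, 3.42, 9.53, 3.42 and 4.32 CPM with TGFB1, against 0, 0.103, 0, 0.359 and 0.114 CPM without. The groups did not overlap for either gene, and in Jup library 71 stood above the other 4 with TGFB1. Jup rose by 5.16 ± 0.66 SE on the log2 scale, and by 6.04 without untreated library 72. Selp, the adhesion molecule P-selectin, had 0.896, 0.59, 0.353, 0 and 0.384 CPM with TGFB1, against 4.34, 7.09, 4.24, 5.74 and 7.49 CPM without, and fell by 3.73 ± 0.46 SE on the log2 scale (adjusted p = 1.03e-06). Tgm1, a transglutaminase, had 3.25, 0, 0.353, 0.285 and 0.288 CPM with TGFB1, against 3.89, 6.37, 3.53, 6.46 and 5.22 CPM without. Library 62 was the only one with TGFB1 close to the untreated level of Tgm1, which fell by 2.65 ± 0.51 SE with all libraries and by 4.32 without that library. The falls of Gm17767 (-2.58) and of the secreted factor Metrnl (-2.27) were likewise larger without library 62, at -3.89 and -3.16. Spp1, the cytokine osteopontin, had 1.34, 0.944, 4.06, 2.75 and 1.15 CPM with TGFB1, against 16.1, 8.74, 11.2, 13.4 and 8.51 CPM without, with no overlap (log2 fold change -2.44, SE 0.40, adjusted p = 4.66e-05).

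**Figure D2:**
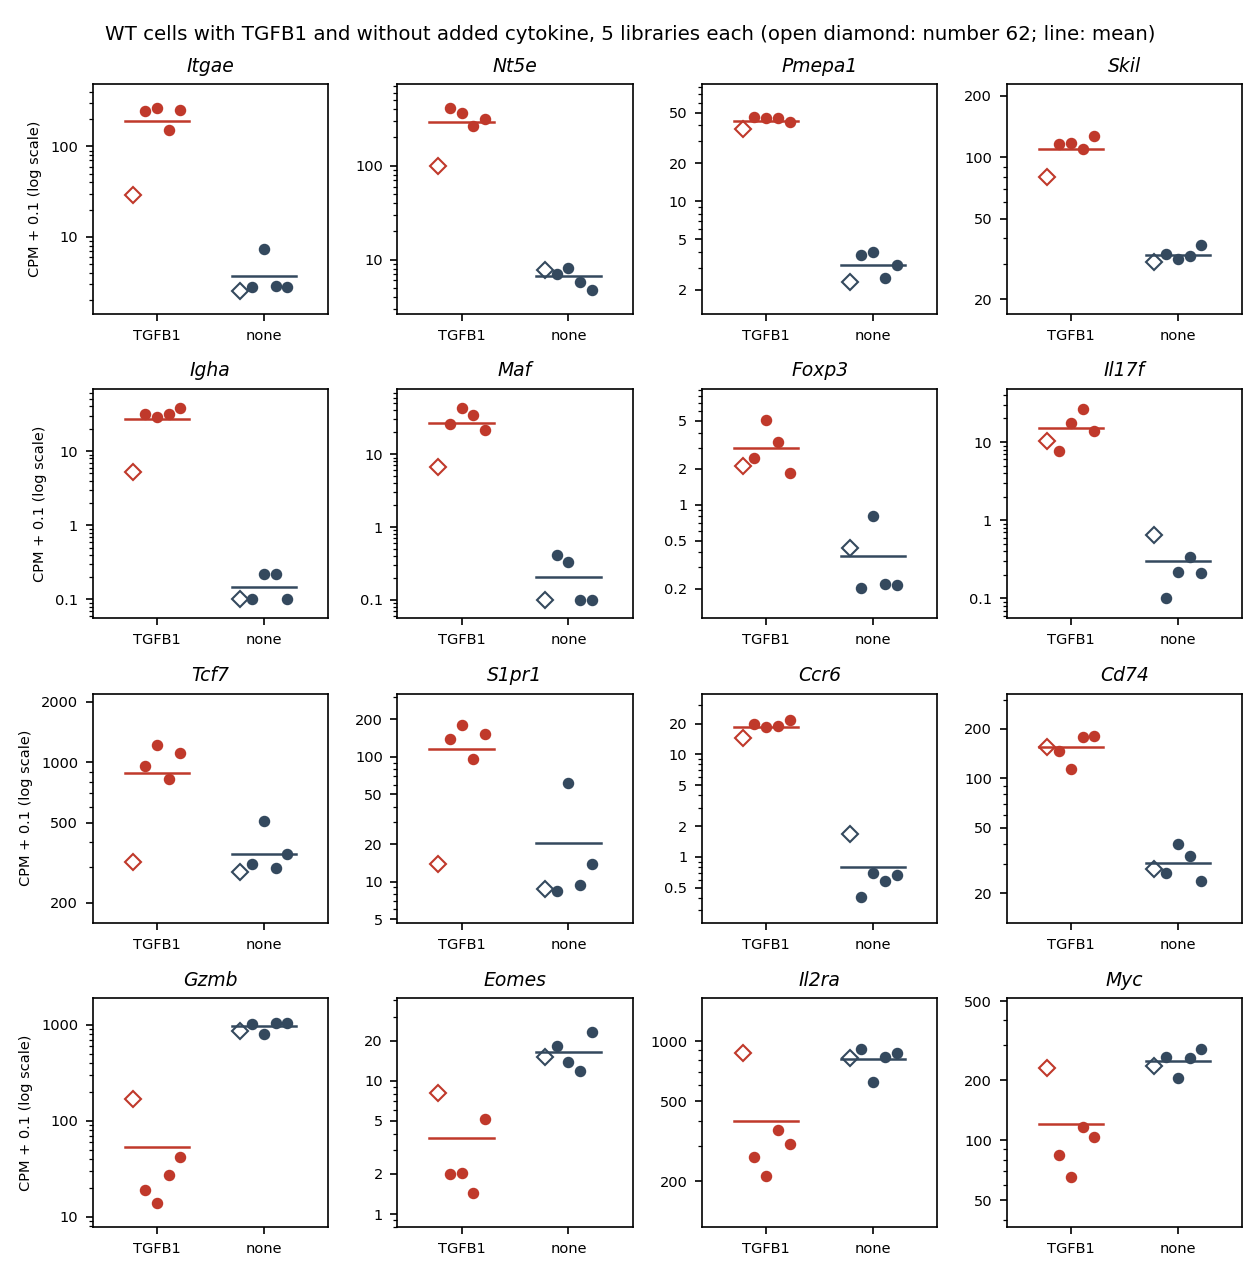
CPM + 0.1 on a log scale for 16 genes in each WT library with TGFB1 and without added cytokine, with the mean as a line and number 62 as an open diamond. In Pmepa1, Ccr6, Il17f and Cd74 library 62 lies with or close to the other TGFB1 libraries, whereas in Tcf7, S1pr1, Il2ra and Myc it lies among the libraries without cytokine.

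Most measured receptors of the TGFB family rose. Of 13 measured genes in the list of TGFB ligands, activators and receptors 9 rose and 2 fell, with a median log2 fold change of 0.91. Tgfbr1, the type I receptor of TGFB1 (ENSMUSG00000007613, chromosome 4, 47353222 to 47414931), had 30.02, 47.4, 53.4, 39.2 and 41.3 CPM with TGFB1, against 15.2, 18.2, 17.2, 15.8 and 20.1 CPM without. All 5 libraries with TGFB1 were above all 5 without, and Tgfbr1 rose by 1.29 ± 0.15 SE (adjusted p = 3.49e-07). Tgfbr2, the type II receptor (ENSMUSG00000032440, chromosome 9, 116084293 to 116175360), had 54.3, 134, 137, 85.95 and 134 CPM with TGFB1, against 47.2, 44.7, 60.8, 46.3 and 44.4 CPM without, and library 62 with TGFB1 lay within the untreated range. Tgfbr2 rose by 1.17 ± 0.19 SE (adjusted p = 5.03e-05). The co-receptor Tgfbr3 was called at 0.67 (adjusted p = 0.0478), a call that ended without library 62 (adjusted p = 0.0584) and without 7 of the other libraries (up to 0.124). Receptors of activins and bone morphogenetic proteins rose as well: Acvr2a by 2.17 ± 0.24 SE, the type I receptors Acvrl1 by 1.55 ± 0.28 SE, Acvr1b by 1.03 ± 0.17 SE and Acvr1 by 0.91 ± 0.18 SE, each without overlap, though all stayed under 14 CPM. Bmpr1a was not called (0.86, adjusted p = 0.0778), nor was the accessory receptor Eng (0.20, adjusted p = 0.293).

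The genes that make TGFB1 available moved in both directions. Furin, the protease that cuts the TGFB1 precursor (ENSMUSG00000030530, chromosome 7, 80388585 to 80405436), had 73.9, 75.3, 79.9, 93.2 and 82.2 CPM with TGFB1, against 36.1, 34.9, 34.3, 28.8 and 38.5 CPM without, with no overlap, and rose by 1.23 ± 0.30 SE (adjusted p = 0.00233). That SE comes from the fit of all 30 libraries, in which Furin spread from 161 to 533 CPM in WT cells with IL12. Itgav, an integrin chain of receptors that release TGFB1 from its latent complex, rose by 0.51 ± 0.10 SE. Tgfb1 itself had 238, 190.1, 197, 207 and 194 CPM with TGFB1, against 251.9, 251, 217, 255 and 245 CPM without, a fall of 0.25 ± 0.08 SE (adjusted p = 0.0124) in which library 62 lay within the untreated range. Lrrc32, the docking protein of latent TGFB1 on regulatory T cells, had at most 3.11 CPM in any library. Its call (-1.36, adjusted p = 0.0226) was lost without TGFB1 library 67 (adjusted p = 0.0505), TGFB1 library 75 (0.0576) or untreated library 62 (0.0638), so that Tgfb1 was the only one of the 13 genes lower in each of those fits.

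The SMADs and their partners were called about as often as all tested genes, at 35.7% against 37.9%. Of these 14 genes 4 rose (Traf6, Crebbp, Smad1 and Smad4) and 1 fell (Strap), with a median of 0.12, and 2 fell without TGFB1 library 62. The count of rises was 2 without TGFB1 library 67 or 71 and without untreated library 62, 67 or 72, where the calls of Smad1 and Smad4 both ended. Smad4, the shared partner, was called at 0.20 (adjusted p = 0.0349) and was lost on leaving out any of 7 libraries (adjusted p up to 0.107). Smad2 (-0.14, adjusted p = 0.143) and Smad3 (0.18, adjusted p = 0.705), the signal carriers, were not called, but Smad2 was without TGFB1 library 62 (adjusted p = 0.033). Of 21 measured SMAD feedback genes and direct targets 11 rose and 2 fell, 61.9% of the list, with a median of 0.555. Smad7, the inhibitory SMAD that blocks the receptor (ENSMUSG00000025880, chromosome 18, 75367529 to 75395935), had 12.9, 29.97, 34.96, 19.4 and 33.9 CPM with TGFB1, against 6.01, 5.55, 10.8, 5.86 and 8.63 CPM without. No library with TGFB1 overlapped with those without, and Smad7 rose by 1.83 ± 0.25 SE (adjusted p = 3.59e-06). Pmepa1, a membrane protein that sequesters SMADs (ENSMUSG00000038400, chromosome 2, 173224458 to 173276533), had 36.96, 46.5, 45.7, 45.5 and 42.6 CPM with TGFB1, against 2.22, 3.70, 3.89, 2.39 and 3.06 CPM without, so that library 62 lay close to the others here (log2 fold change 3.82, SE 0.21, adjusted p = 2.01e-13). Skil, which encodes the co-repressor SnoN (ENSMUSG00000027660, chromosome 3, 31095058 to 31122577), had 79.8, 116, 118, 109.8 and 126 CPM with TGFB1, against 30.5, 33.5, 31.7, 32.5 and 36.9 CPM without, with no overlap, and rose by 1.74 ± 0.11 SE (adjusted p = 1.68e-12). Its relative Ski rose by 1.21 ± 0.12 SE, the related membrane inhibitor Ldlrad4 by 2.77 ± 0.38 SE, the ubiquitin ligase Smurf2 by 0.49 ± 0.09 SE and the co-repressor Tgif1 by 0.60 ± 0.10 SE. Tsc22d1, a leucine-zipper factor first found as a TGFB-induced gene, had 11.2, 14.9, 15.8, 15.8 and 11.7 CPM with TGFB1, against 4.12, 1.95, 3.53, 2.87 and 3.52 CPM without (log2 fold change 2.12, SE 0.19, adjusted p = 3.2e-09). Id3 (-0.30, adjusted p = 0.345), Klf10 (0.56, adjusted p = 0.0926), Junb (0.16, adjusted p = 0.336) and Bambi (-0.15, adjusted p = 0.822) were not called, although Klf10 was without untreated library 71 (adjusted p = 0.0043).

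More genes of tissue residency rose than fell, led by the epithelial anchor. Itgae, which encodes CD103, the integrin chain that binds E-cadherin (ENSMUSG00000005947, chromosome 11, 73090583 to 73147446), had 28.9, 244, 268, 152 and 254 CPM with TGFB1, against 2.45, 2.67, 7.30, 2.75 and 2.72 CPM without. Every library with TGFB1 was above every library without, and library 62 stood far below the other 4 with TGFB1. Itgae rose by 5.73 ± 0.45 SE (adjusted p = 2.58e-10), and by 6.01 without library 62. Nt5e, which encodes CD73, the enzyme that makes adenosine from AMP (ENSMUSG00000032420, chromosome 9, 88327197 to 88372092), had 99.1, 406, 366, 266 and 311 CPM with TGFB1, against 7.56, 6.99, 8.01, 5.74 and 4.65 CPM without, again with library 62 lowest among the libraries with TGFB1 and above all libraries without (log2 fold change 5.45, SE 0.33, adjusted p = 6.71e-13). Of 23 measured residency genes 12 rose and 3 fell, with a median of 0.73. The risen ones include Gpr55, a lipid receptor (1.46 ± 0.20 SE), Cd101, an inhibitory surface protein (1.43 ± 0.21 SE), Runx3, a factor of CD8 T-cell identity (0.77 ± 0.16 SE), and the chemokine receptor Cxcr6 (1.88 ± 0.32 SE). For Runx3 (43.3 CPM) and Cxcr6 (11.9 CPM), library 62 with TGFB1 lay within the untreated range. The 3 that fell were Cd69, Inpp4b and Icos. Cd69, the early activation antigen that retains cells in tissue, had 112, 59.6, 38.2, 47.5 and 61.7 CPM with TGFB1, against 109, 121, 79.7, 104 and 118 CPM without, and library 62 lay within the untreated range (log2 fold change -0.74 ± 0.17 SE, adjusted p = 0.00133; -1.04 without 62). Inpp4b lost its call without TGFB1 library 72 (adjusted p = 0.0525) and Icos without any of 6 libraries (up to 0.0932), so that without library 72 only Cd69 of the list was lower.

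Among genes of circulating and naive T cells, too, more rose than fell. Of 25 measured genes of naive and central memory cells 14 rose and 2 fell (median 0.74), 1 of which lost its call without TGFB1 library 62 or 72 or untreated library 71, and of 14 genes of tissue egress and recirculation 7 rose and 1 fell (median 0.60), a fall lost without any of the same 3 libraries. S1pr1, the receptor with which T cells leave lymphoid tissue (ENSMUSG00000045092, chromosome 3, 115710433 to 115715072), had 13.9, 138, 178, 96.0 and 151 CPM with TGFB1, against 8.68, 8.33, 61.1, 9.33 and 13.8 CPM without. Library 62 with TGFB1 lay within the untreated range, and library 71 without cytokine stood above it and above the other 4 untreated libraries. S1pr1 rose by 2.52 ± 0.64 SE (adjusted p = 0.00291), and by 3.54 without untreated library 71. Tcf7, which encodes the stem-like factor TCF1 (ENSMUSG00000000782, chromosome 11, 52252371 to 52283014), had 318, 958, 1224, 828 and 1110 CPM with TGFB1, against 285, 313, 508, 298 and 348 CPM without, and the 4 libraries other than 62 were above all untreated ones (log2 fold change 1.34, SE 0.30, adjusted p = 0.00112). Ccr7, the lymph-node homing receptor, had 592, 917, 848, 802 and 959 CPM with TGFB1, against 386, 436, 643, 501 and 461 CPM without, and library 62 lay within the untreated range (log2 fold change 0.76, SE 0.17, adjusted p = 0.00123). Il6ra, the receptor chain for IL6, had 35.3, 40.2, 66.5, 53.5 and 46.7 CPM with TGFB1, against 6.78, 7.40, 11.8, 9.21 and 7.83 CPM without, without overlap (log2 fold change 2.50, SE 0.26, adjusted p = 6.8e-08). Foxo1, a factor that maintains quiescence, rose by 0.81 ± 0.12 SE, Il7r, the receptor chain for IL7, by 1.09 ± 0.28 SE, and Cd27 by 0.94 ± 0.19 SE. Bcl6, the repressor of effector genes, had 1.79, 10.6, 11.03, 4.27 and 13.2 CPM with TGFB1, against 1.22, 0.514, 1.88, 0.957 and 0.681 CPM without, where library 62 stood inside the untreated range (log2 fold change 2.96, SE 0.41, adjusted p = 6.3e-06). Lef1 was called at 0.47 (adjusted p = 0.0153), and not without TGFB1 library 71 (adjusted p = 0.0775), and Klf2 at 0.89 (adjusted p = 0.0463), a call lost on leaving out any of 7 libraries (up to 0.127).

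Chemokine receptors that changed were mostly higher. Of 17 measured receptors 8 rose and 1 fell, with a median of 0.76, and 2 fell without TGFB1 library 62 or 75. Ccr6, the receptor for CCL20 (ENSMUSG00000040899, chromosome 17, 8236043 to 8257141), had 14.2, 19.6, 18.4, 18.97 and 21.7 CPM with TGFB1, against 1.56, 0.308, 0.589, 0.478 and 0.568 CPM without, so that the lowest library with TGFB1, 62, was far above the highest untreated one (log2 fold change 4.71, SE 0.39, adjusted p = 6.46e-10). Its ligand Ccl20 had 0 counts in all 5 untreated libraries and 96 counts with TGFB1, which is at least 28.9-fold higher against a floor of 3 counts over the untreated group. Ccr8, a skin-homing receptor, had 1.12, 6.61, 3.53, 5.12 and 8.36 CPM with TGFB1, against 0.111, 0.103, 0, 0.478 and 0.341 CPM without (log2 fold change 4.52, SE 0.59, adjusted p = 5.17e-06). Gpr15, a receptor for homing to the colon, had 1.68, 8.02, 16.8, 11.8 and 8.74 CPM with TGFB1, against 0.445, 0.103, 1.65, 0.718 and 0.795 CPM without (log2 fold change 3.68, SE 0.59, adjusted p = 3.32e-05). Cxcr3, which binds interferon-induced chemokines, rose by 2.60 ± 0.43 SE, although library 62 at 4.14 CPM lay within the untreated range. Of 15 integrin chains 6 rose and 0 fell, or 1 without TGFB1 library 62, and beside Itgae and Itgav these include Itga5 (0.94 ± 0.24 SE) and Itgb4, whose 62 counts with TGFB1 against 3 without give a ratio of 18.7 (95% exact counting interval 6.10 to 93.0). Integrin chains were called about as often as all tested genes, at 40.0% against 37.9%.

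Genes of the regulatory and IL17-producing lineages had the largest median of any list with at least 9 measured members. Of 20 measured genes 12 rose and 4 fell, and the median was 1.90. Maf, a factor of IL10- and IL17-producing T cells (ENSMUSG00000055435, chromosome 8, 115682942 to 115707794), had 6.50, 25.8, 43.5, 34.3 and 21.5 CPM with TGFB1, against 0, 0.308, 0.236, 0 and 0 CPM without. It was at or near 0 in every untreated library and present in every library with TGFB1, lowest in 62. The fitted log2 fold change of Maf was 7.72 ± 0.73 SE (adjusted p = 1.06e-08), and 8.55 without untreated library 67. Il17f, a cytokine of the IL17 family (ENSMUSG00000041872, chromosome 1, 20777146 to 20790617), had 10.1, 7.67, 17.3, 26.4 and 13.8 CPM with TGFB1, against 0.556, 0, 0.118, 0.239 and 0.114 CPM without, and library 62 was not the lowest with TGFB1. Il17f rose by 6.13 ± 0.63 SE (adjusted p = 4.56e-08), and by 6.92 without untreated library 62. Foxp3, the factor of regulatory T cells, stayed low, with 2.02, 2.36, 5.03, 3.23 and 1.73 CPM with TGFB1, against 0.334, 0.103, 0.707, 0.12 and 0.114 CPM without, but without overlap (log2 fold change 3.36, SE 0.57, adjusted p = 6.3e-05; 4.03 without untreated library 71). Cells of different lineages cannot be separated in bulk RNA, so that more cells of a type and more RNA per cell cannot be told apart here or in the results below. The 4 that fell were Il2ra, Irf4, Nrp1 and Lrrc32, but without untreated library 62 only Il2ra and Irf4 were called. The call of Nrp1, a surface receptor of thymic regulatory T cells (-0.62, adjusted p = 0.0252), also ended without TGFB1 library 71 (adjusted p = 0.059) or 72 (0.0712).

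The aryl hydrocarbon receptor, a sensor of aromatic compounds, rose with some of its targets. Of 9 measured genes of that pathway 5 rose and 1 fell. Ahr, the ligand-activated factor (ENSMUSG00000019256, chromosome 12, 35497974 to 35535038), had 4.14, 4.25, 7.33, 10.5 and 6.05 CPM with TGFB1, against 1.67, 2.06, 0.942, 0.957 and 2.27 CPM without, with no overlap (log2 fold change 2.02, SE 0.38, adjusted p = 0.000194). Cyp1a1, its classical target (ENSMUSG00000032315, chromosome 9, 57687928 to 57703824), had 1.90, 4.60, 6.09, 5.88 and 3.17 CPM with TGFB1, against 0, 0.103, 0, 0.239 and 0.227 CPM without, at most 0.239 CPM in any untreated library (log2 fold change 5.12, SE 0.55, adjusted p = 8.04e-08). Ahrr, the repressor induced by the same receptor, rose by 2.90 ± 0.46 SE (adjusted p = 2.76e-05), and Cyp1b1 by 3.53 ± 0.76 SE (adjusted p = 0.000765; 4.66 without untreated library 71). Slc7a5, an amino acid transporter on this list and on that of the amino acid response, fell by 1.00 ± 0.20 SE.

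Killing genes were divided. Gzmb, which encodes granzyme B, the main killing protease of activated CD8 T cells (ENSMUSG00000015437, chromosome 14, 56258838 to 56262260), had 167, 18.8, 13.9, 26.9 and 41.5 CPM with TGFB1, against 858, 1026, 805, 1055 and 1053 CPM without. No value overlapped, and library 62 at 167 CPM lay between the other TGFB1 libraries and the untreated ones. Gzmb fell by 4.17 ± 0.47 SE on the log2 scale (adjusted p = 2.22e-07), and by 5.25 without library 62. Prf1, the pore-forming perforin (ENSMUSG00000037202, chromosome 10, 61297833 to 61304680), had 38.98, 24.7, 23.8, 20.4 and 35.5 CPM with TGFB1, against 123, 116, 53.8, 53.1 and 90.5 CPM without, also without overlap (log2 fold change -1.61, SE 0.26, adjusted p = 3.45e-05). Of 16 measured cytotoxic effectors 4 fell and 5 rose, with a median of -0.03. The other falls were Tnfsf10, the death ligand TRAIL, which lost its call without TGFB1 library 72 (adjusted p = 0.0511), and Nkg7, which lost it without any of 6 libraries (up to 0.163), so that without library 72 only 2 members were lower. The rises concern the granule machinery: the protease Ctsw by 1.36 ± 0.20 SE, the fusion protein Stx11 by 0.73 ± 0.13 SE, the vesicle protein Rab27a by 0.55 ± 0.15 SE and the protease Ctsd by 0.49 ± 0.08 SE. Of 8 serpins that inhibit granzymes or related proteases 4 fell and 1 rose. Serpinb9, the inhibitor of granzyme B, had 23.6, 21.7, 13.1, 14.99 and 29.9 CPM with TGFB1, against 73.3, 69.2, 34.98, 43.2 and 62.3 CPM without, without overlap (log2 fold change -1.46, SE 0.27, adjusted p = 0.000173). Serpinb9b fell by 1.63 ± 0.38 SE and Serpinb6a rose by 0.82 ± 0.14 SE, but these serpins have near-identical copies among which the authors' counting could have split reads, so their values are uncertain.

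Transcription factors and cytokines of effector cells moved in both directions. At 2-fold or more, 2 of the listed factors rose and 2 fell, and 4 cytokine genes rose and 6 fell. The farthest of them were rises, those of Maf and Il17f given above. Eomes, which drives killing and memory genes (ENSMUSG00000032446, chromosome 9, 118478212 to 118486132), had 7.95, 1.89, 1.94, 1.33 and 5.09 CPM with TGFB1, against 14.9, 18.2, 13.8, 11.7 and 23.04 CPM without, with no overlap (log2 fold change -2.18, SE 0.32, adjusted p = 1.11e-05). Hic1 fell by 1.47 ± 0.31 SE and Nfil3, a factor of cytotoxic cells, by 0.82 ± 0.24 SE. Tbx21, which encodes T-bet, was called at -0.49 ± 0.20 SE (adjusted p = 0.0486), but 9 of the 10 libraries, left out one at a time, ended that call (adjusted p up to 0.156, without TGFB1 library 67), while without library 62 its adjusted p was 0.00687. Stat3, which carries signals of IL6, rose by 0.80 ± 0.13 SE, Stat5b by 0.76 ± 0.11 SE and the low-expressed Tox2 by 2.46 ± 0.51 SE. Of 28 effector factors 7 rose and 6 fell, 46.4% of the list against 37.9% of all tested genes. Among 23 cytokine genes 5 rose and 8 fell, with a median of -0.31. Tnfsf8, the ligand of CD30, had 102, 45.4, 30.98, 41.2 and 38.9 CPM with TGFB1, against 151, 154, 118, 158 and 148 CPM without and fell without overlap (log2 fold change -1.50, SE 0.21, adjusted p = 6.3e-06). Osm, oncostatin M, had 24.6, 4.48, 8.30, 5.79 and 7.40 CPM with TGFB1, against 21.8, 24.7, 34.98, 27.2 and 34.96 CPM without, where library 62 was the only one with TGFB1 within the untreated range (log2 fold change -1.51, SE 0.29, adjusted p = 0.000266; -2.13 without 62). Pdgfb, a growth factor, had 13.2, 15.6, 10.5, 17.6 and 18.4 CPM with TGFB1, against 8.45, 4.42, 2.83, 4.19 and 3.06 CPM without, without overlap (log2 fold change 1.71, SE 0.27, adjusted p = 2.76e-05). Ifng (0.29, adjusted p = 0.691) and Il2 (-0.46, adjusted p = 0.588) were not called.

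Cytokine receptors and checkpoint receptors changed one by one. Il2ra, the alpha chain of the IL2 receptor, had 867, 262, 211, 358 and 305 CPM with TGFB1, against 823, 911, 628, 831 and 875 CPM without. Library 62 was within the untreated range, and the other 4 with TGFB1 were below it. Il2ra fell by 1.02 ± 0.24 SE (adjusted p = 0.00179) with library 62 and by 1.52 (adjusted p = 9.4e-08) without it. Il4ra fell by 1.14 ± 0.17 SE and Il10ra by 1.05 ± 0.26 SE, while Il18r1 rose by 1.73 ± 0.34 SE and Il6st, the signalling chain shared by IL6-type cytokines, by 1.34 ± 0.23 SE. In all 12 of 29 genes on the receptor list rose and 5 fell, one of which, Csf1, is a ligand placed on that list in error. Pdcd1, which encodes the inhibitory receptor PD-1 (ENSMUSG00000026285, chromosome 1, 94038305 to 94052553), had 135, 212, 172, 219 and 201 CPM with TGFB1, against 85.3, 70.3, 58.8, 60.2 and 51.8 CPM without, without overlap (log2 fold change 1.52, SE 0.20, adjusted p = 1.69e-06). Cd96, a receptor for nectins, had 71.2, 213, 174, 131 and 196 CPM with TGFB1, against 41.7, 53.2, 47.5, 35.5 and 49.7 CPM without (log2 fold change 1.79, SE 0.18, adjusted p = 4.78e-08). Of 14 inhibitory receptors 6 rose, with Lag3 at 0.43 ± 0.08 SE and Ctla4 at 0.50 ± 0.16 SE, and 3 fell, with Btla at -0.73 ± 0.13 SE and Cd200 at -0.81 ± 0.21 SE. Of 21 costimulatory receptors 5 rose and 7 fell: Cd44, the hyaluronan receptor of activated cells, rose 2.36-fold, and Crtam fell 2.14-fold and the costimulator Tnfrsf4, OX40, fell by 0.72 ± 0.17 SE on the log2 scale. Klrd1, the CD94 chain, had 18.4, 86.7, 84.9, 59.1 and 81.9 CPM with TGFB1, against 28.5, 33.4, 34.5, 21.6 and 26.3 CPM without, and library 62 was the lowest of all 10 (log2 fold change 1.197, SE 0.26, adjusted p = 0.00067). Klrk1, which encodes NKG2D, fell by 0.80 ± 0.15 SE. Of 10 measured NK-type receptors 4 rose and 1 fell, and this gene family holds close copies.

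Igha, the constant region of immunoglobulin A (ENSMUSG00000095079, chromosome 12, 113254830 to 113260236), was the gene with the largest fitted rise. It had 5.15, 31.1, 28.4, 31.7 and 38.1 CPM with TGFB1, against 0, 0, 0.118, 0.12 and 0 CPM without. Its 1363 summed counts with TGFB1 against 2 without give a ratio of 616 after scaling to depth, with a 95% exact interval for counting error of 170 to 5090, and library 62 held the least among the TGFB1 libraries. The class switch of B cells to IgA is known to be induced by TGFB1. Of the 10 B-cell markers, Pax5 and Fcer2a had 0 counts in all 10 libraries, Ms4a1 had 1 count over all 10, and only Cd79b passed the filter. As CPM of the library total, the B-cell markers summed to 12.01 to 19.07 with TGFB1 and 9.569 to 16.55 without, of which Cd79b gave 11.6 to 18.7 and 9.02 to 16.4. Ighd, the constant region of immunoglobulin D, had 5.04, 14.98, 23.8, 21.3 and 14.5 CPM with TGFB1, against 6.01, 5.86, 7.77, 6.46 and 4.88 CPM without, and library 62 lay within the untreated range (log2 fold change 1.37, SE 0.27, adjusted p = 0.000383). Genes of MHC class II, which present antigen to CD4 T cells, also rose in part: 4 of 7 measured genes did and 0 fell (median 1.33). Cd74, the invariant chain (ENSMUSG00000024610, chromosome 18, 60803848 to 60812652), had 154, 146, 113, 178 and 181 CPM with TGFB1, against 28.03, 26.3, 39.8, 33.5 and 23.6 CPM without, with library 62 level with the rest (log2 fold change 2.35, SE 0.25, adjusted p = 7.5e-08). H2-Oa rose 3.48-fold, and on the log2 scale H2-Eb1 rose by 1.72 ± 0.39 SE and H2-DMa by 0.87 ± 0.23 SE. Of 16 myeloid and dendritic-cell markers, Fcgr1, Siglech, Clec9a, S100a8 and S100a9 had 0 counts in all 10 libraries. Their sum was 3.97 to 11.4 CPM with TGFB1 and 1.65 to 7.89 without, and of the 3 that passed the filter the lysosomal gene Cd68 rose by 1.15 ± 0.25 SE. Sums of CD4 T-cell markers were 21.5 to 33.0 CPM with TGFB1 and 17.1 to 25.9 without, with Zbtb7b called at 0.55 ± 0.13 SE and Cd4 at most at 1.84 CPM. Markers of NK, innate lymphoid and gamma-delta cells summed to 30.4 to 54.4 CPM with TGFB1 and 31.5 to 49.8 without, with Kit at 3.39 ± 0.39 SE and the gamma-delta chain gene Tcrg-C2 at -1.47 ± 0.41 SE. The part of other cells in any of these results was not tested.

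Most measured genes of growth programmes fell, and library 62 stayed closest to the untreated libraries in them. Myc, the factor that drives growth after activation (ENSMUSG00000022346, chromosome 15, 61985391 to 61990374), had 232, 84.1, 65.7, 117 and 103 CPM with TGFB1, against 235, 262, 206, 259 and 288 CPM without. The 4 libraries other than 62 were below all untreated ones, and 62 was among the untreated. Myc fell by 1.06 ± 0.19 SE (adjusted p = 0.000152), and by 1.43 without library 62. Of 35 genes of MYC and ribosome biogenesis 26 fell, such as Mybbp1a (-0.70 ± 0.14 SE) and Pa2g4 (-0.58 ± 0.11 SE). The 2 that rose, Mxd4 (2.70 ± 0.36 SE) and Mxd1 (1.17 ± 0.29 SE), are known antagonists of MYC. Mxd4 had 60.03, 200.4, 183, 143 and 205 CPM with TGFB1, against 16.5, 13.2, 45.4, 31.1 and 16.6 CPM without, without overlap between the groups. The amino acid response, which ATF4 drives, had 23 of 30 genes lower and 2 higher (median -0.72; 1 higher without TGFB1 library 62 or 72 or untreated library 67 or 71), among them Trib3, a pseudokinase (-1.37 ± 0.23 SE), and the serine enzymes Psph (-0.78 ± 0.13 SE) and Shmt2 (-0.77 ± 0.14 SE). Summed over those 30 genes, the level was 6604 CPM in library 62 and 3498 to 4395 CPM in the other 4 with TGFB1, against 5646 to 7486 CPM without. The ribosomal proteins themselves went the other way as a share of all counts, 11.1% ± 0.405 with TGFB1 against 9.89% ± 0.447 without (SD, n = 5 each). Those shares did not overlap (10.6% to 11.6% against 9.19% to 10.4%), and a two-sided exact permutation test gave p = 0.00794, the smallest that 5 against 5 can give. The mitochondrial share was 1.12% ± 0.305 with TGFB1 and 0.898% ± 0.221 without (SD, n = 5 each, two-sided exact permutation p = 0.214).

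Most listed genes of cholesterol synthesis and of glycolysis fell as well. Of 28 genes of cholesterol synthesis and uptake 22 fell and 1 rose, with a median of -0.50, and 2 rose without TGFB1 library 62 or untreated library 71. Sqle, squalene epoxidase, an early enzyme of the pathway (ENSMUSG00000022351, chromosome 15, 59315077 to 59331192), had 262, 146, 147, 199 and 148 CPM with TGFB1, against 344, 326, 258, 277 and 322 CPM without. The groups overlapped through library 62 (-0.76 ± 0.13 SE). The 1 that rose was Abca1, the exporter of cholesterol, which had 6.38, 9.91, 15.98, 13.7 and 12.5 CPM with TGFB1, against 1.89, 1.23, 2.83, 2.27 and 1.70 CPM without (log2 fold change 2.57, SE 0.30, adjusted p = 4.25e-07). Of 16 genes of fatty acid synthesis 9 fell and 2 rose, with Elovl6 at -1.08 ± 0.20 SE and Acaca at -0.88 ± 0.16 SE. Of 35 genes of glycolysis and hypoxia 24 fell and 1 rose (median -0.42), among them the glucose transporter Slc2a1 (-0.83 ± 0.13 SE), the kinase Pfkp (-0.67 ± 0.09 SE) and Bnip3 (-1.46 ± 0.27 SE). Oxidative phosphorylation moved little: of 32 genes 5 fell and 1 rose, and the median was -0.06. The rises were 3 without untreated library 71, 2 without TGFB1 library 62 and 0 without any of 7 other libraries. Of 29 genes of cytoskeleton, matrix and adhesion 12 rose and 3 fell, led by Vim, the filament protein vimentin (1439, 1531, 2055, 1857 and 1323 CPM with TGFB1, against 625, 614, 866, 645 and 486 CPM without), the matrix inhibitor Timp2 (2.55 ± 0.29 SE) and the protease Adam19 (2.50 ± 0.26 SE).

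**Figure D3:**
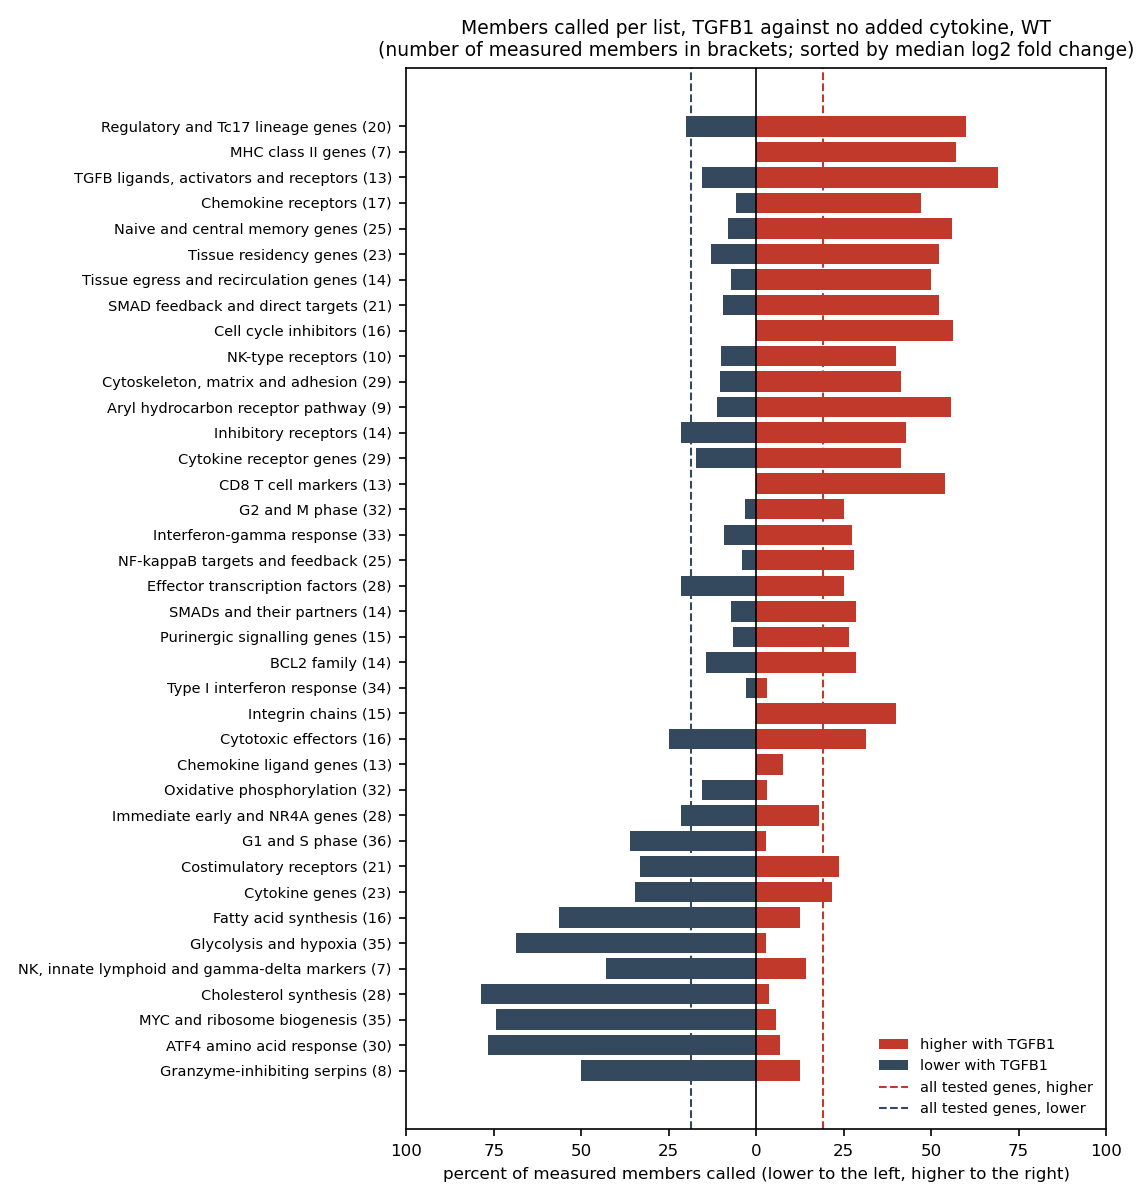
Percent of each list's measured members that were called higher or lower with TGFB1, for lists with at least 7 measured members, with the share of all tested genes as dashed lines (19.2% higher, 18.6% lower). Cholesterol synthesis, with 22 of 28 lower, and the TGFB receptor list, with 9 of 13 higher, lie far from the dashed lines.

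**Figure D4:**
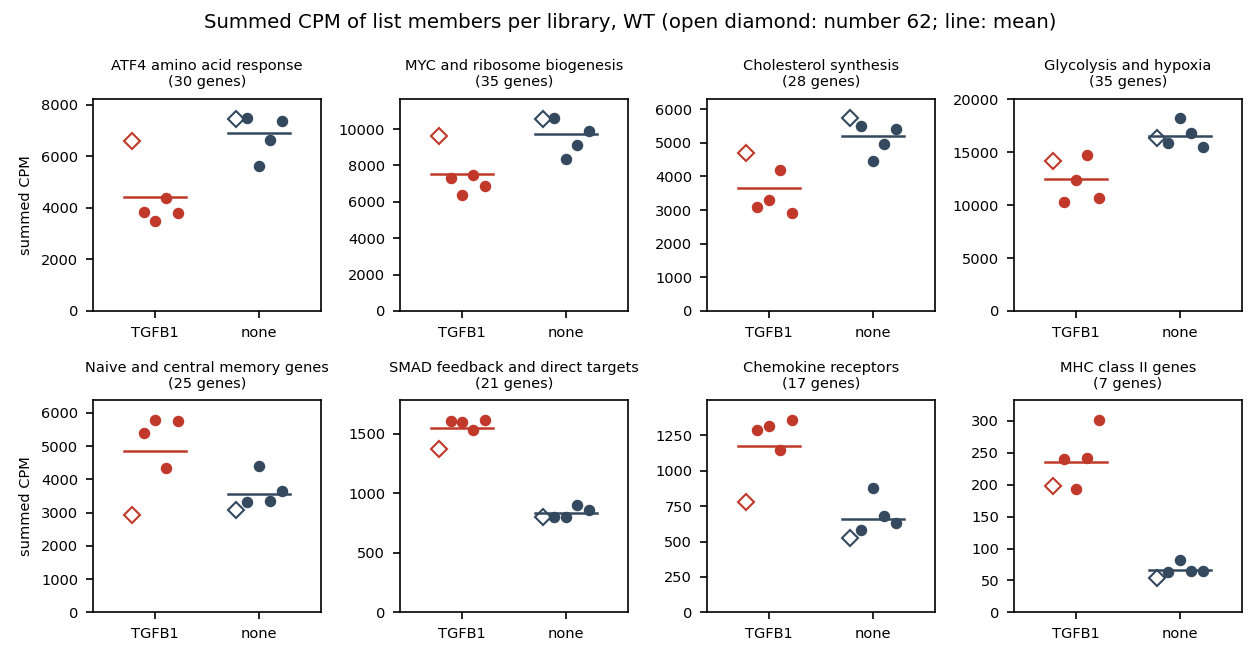
Summed CPM of the members of 8 lists in each WT library, with TGFB1 left and without added cytokine right, the mean as a line and number 62 as an open diamond. Library 62 with TGFB1 lies among the untreated libraries for the amino acid response (6604 CPM) and below them all for naive genes (2920 CPM), and near the other TGFB1 libraries for SMAD feedback (1372 CPM) and MHC class II (198 CPM).

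Of the listed genes of the cell cycle and its inhibitors, Cdk6, which fell, and Btg2, which rose, were the only ones called at 2-fold or more with all 10 libraries. Cdk6, a kinase of entry into the cycle, had 145, 55.7, 38.8, 57.7 and 54.1 CPM with TGFB1, against 188, 209, 194, 212 and 246 CPM without, without overlap (log2 fold change -1.58, SE 0.25, adjusted p = 3.61e-05). Of 36 genes of G1 and DNA synthesis, 13 fell and 1 rose, with a median of -0.12, and 8 fell without untreated library 67, while the 1 rise was lost without that library, untreated library 62 or TGFB1 library 71. The share of that list called was 38.9%, against 37.9% of all tested genes. Of 32 genes of G2 and mitosis, 8 rose and 1 fell, 28.1% of the list, with Cdc20 at 0.34 ± 0.07 SE. The count of rises rests on single libraries, since it was 16 without TGFB1 library 62 and 3 without TGFB1 library 71, and the 1 fall was lost without any of 5 libraries. Of 16 inhibitors of the cycle 9 rose and 0 fell, with a median of 0.53, and 2 fell without TGFB1 library 62. The rises include the antiproliferative genes Btg1 (0.83 ± 0.08 SE), Btg2 (1.40 ± 0.25 SE) and Tob1 (0.72 ± 0.11 SE) and the kinase inhibitor Cdkn1b (0.97 ± 0.21 SE). Cdkn1a, the p53 target p21, had 371, 96.9, 86.2, 208 and 109.9 CPM with TGFB1, against 253, 242, 199, 289 and 248 CPM without, with library 62 the highest of all 10. It was not called (-0.50, adjusted p = 0.125), but was without library 62 (-0.98, adjusted p = 0.000225). Bcl2, which protects from cell death, had 180.3, 70.2, 48.99, 65.3 and 69.4 CPM with TGFB1, against 179, 185, 212, 227 and 222 CPM without, with library 62 at the untreated level (log2 fold change -1.25, SE 0.22, adjusted p = 0.000128; -1.70 without 62). Bmf, which promotes cell death, had 17.4, 37.5, 28.4, 49.5 and 37.3 CPM with TGFB1, against 6.67, 4.93, 7.18, 14.5 and 5.56 CPM without, without overlap (log2 fold change 2.14, SE 0.26, adjusted p = 7.66e-07). Of 14 members of the BCL2 family 4 rose and 2 fell, 42.9% against 37.9% of all tested genes, and 4 fell without library 62.

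Interferon, early-response and NF-kappaB genes gave mixed counts. Of 33 interferon-gamma response genes 9 rose and 3 fell, so that 36.4% were called against 37.9% of all tested genes, and with the library number as a block 15 rose and 5 fell. The list had the MHC class I genes B2m (0.47 ± 0.08 SE) and Tap1 (0.40 ± 0.09 SE) and the factor Irf1 (0.56 ± 0.13 SE) among the rises and the guanylate-binding genes Gbp5 (-1.14 ± 0.22 SE) and Gbp7 (-1.34 ± 0.24 SE), which have close copies, among the falls. Of 34 type I interferon genes 1 rose and 1 fell, 5.88% of the list, but this small count depends on the fit. With the library number as a block 6 rose and 4 fell, 3 rose without untreated library 71, none rose without any of 6 other libraries, and 2 fell without TGFB1 library 67. Of 28 immediate early genes 5 rose and 6 fell, with Dusp4 at 1.25 ± 0.12 SE and Egr1 at -0.73 ± 0.18 SE, and the falls were 3 without TGFB1 library 67, 71 or 75 or untreated library 75, and the rises 3 without TGFB1 library 67. This list was called about as often as all tested genes, at 39.3% against 37.9%. Of 25 NF-kappaB targets 7 rose and 1 fell, 32.0% of the list. The falls were 4 without TGFB1 library 62 and 0 without any of 7 other libraries. The rises include the inhibitors Tnip1 (1.11 ± 0.16 SE), Tnfaip3 (0.81 ± 0.17 SE) and Nfkbia (0.52 ± 0.15 SE).

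WT cells with IL12 were compared with WT cells with TGFB1 directly. This test called 6150 of 11718 genes (52.5%), 3034 higher and 3116 lower with TGFB1. It uses the same 5 libraries with TGFB1 as the comparison with untreated cells. Gzmb averaged 53.5 ± 64.2 CPM with TGFB1 and 4150 ± 1740 CPM with IL12 (SD, n = 5 each), a log2 difference of -6.29 (adjusted p = 4.06e-10). Prf1 averaged 28.7 ± 8.10 CPM with TGFB1 and 226 ± 50.9 CPM with IL12 (-2.98), and Eomes averaged 3.64 ± 2.83 CPM and 36.6 ± 7.82 CPM (-3.35) in the same order. Ifng, the main effector cytokine, averaged 11.9 ± 6.83 CPM with TGFB1 and 796 ± 520.0 CPM with IL12, a difference of -6.08 (adjusted p = 7.98e-10). For Selp the difference was -5.32. Both cytokines also share the untreated libraries. Against those, with TGFB1 and with IL12, Gzmb had log2 fold changes of -4.17 and 2.11, Prf1 -1.61 and 1.37, and Eomes -2.18 and 1.16. Furin rose with both, by 1.23 with TGFB1 and 3.44 with IL12, and was lower with TGFB1 than with IL12, at a difference of -2.21 (adjusted p = 1.13e-06). The libraries with IL12 were uneven: Furin had 161 and 182 CPM in 62 and 67, and 511, 533 and 485 CPM in 71, 72 and 75. With IL12, Gzmb (2239 and 2419 CPM) and Ifng (276 and 302 CPM) were also lowest in 62 and 67, whereas Prf1 was lowest in 72. Itgae and Ccr6 were not called with IL12 against untreated cells (-0.43 and 0.07) and were higher with TGFB1 than with IL12 by 6.16 and 4.64. Kit, Abca1 and Lgals3, which encodes a galectin, rose with either, and none of them differed between TGFB1 and IL12 beyond the test (differences 0.23, -0.12 and 0.29, adjusted p = 0.531, 0.703 and 0.27).

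**Figure D5:**
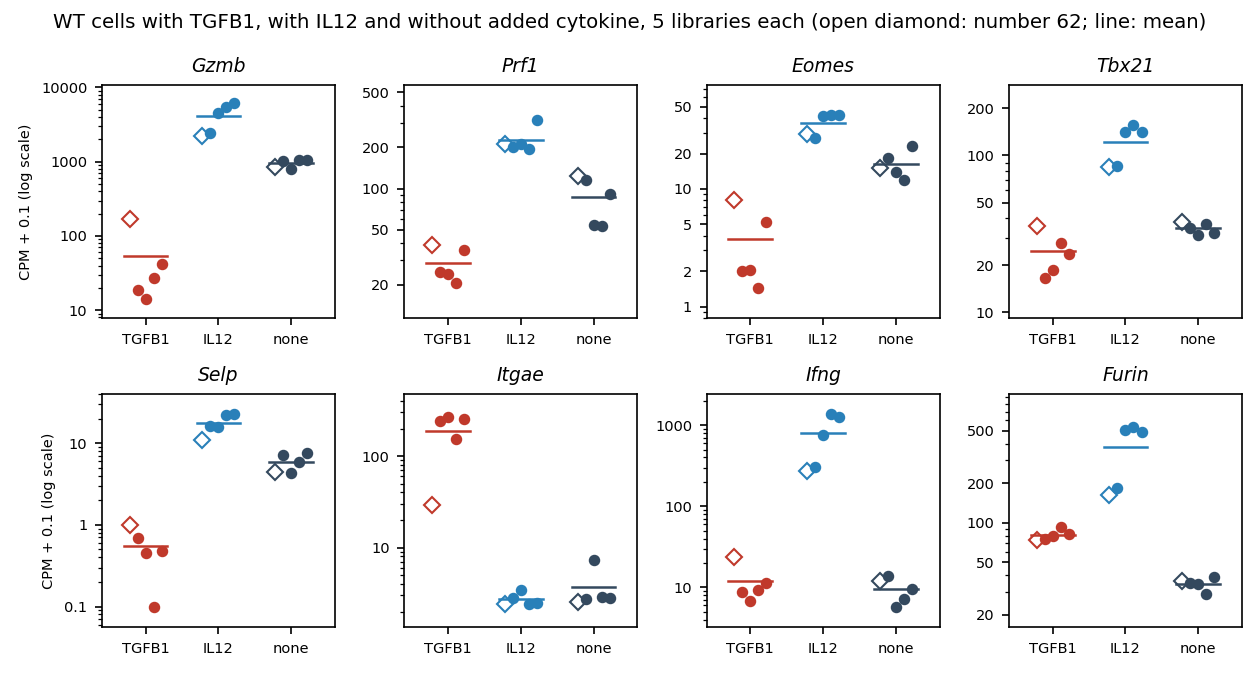
CPM + 0.1 on a log scale for 8 genes in the 5 WT libraries with TGFB1, the 5 with IL12 and the 5 without added cytokine, with the mean as a line and number 62 as an open diamond. Gzmb, Prf1, Eomes, Tbx21, Selp and Ifng average lower with TGFB1 than with IL12, Itgae averages higher, and Furin averages 80.9 CPM with TGFB1 and 375 CPM with IL12, where its libraries range from 161 to 533 CPM.

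The response was also set against that of Furin KO cells, which shares no library with it. Across the 11718 genes the log2 changes with TGFB1 in WT and in KO correlated with Spearman's rho 0.529 and Pearson's r 0.705, as a description over genes, which are not independent. Of genes that rose in WT 944 also rose in KO, which is 41.9% of the 2255 in WT and 59.5% of the 1586 in KO. Of those that fell 628 fell in both, 28.8% of 2184 in WT and 48.7% of 1289 in KO. For comparison, 19.2% of all tested genes rose in WT and 18.6% fell. In KO 1586 of the 11718 tested genes rose and 1289 fell. A test of the difference between the responses called 387 genes (3.3%), with 198 positive and 189 negative, and that count ranged from 58 without TGFB1 library 75 to 2155 without TGFB1 library 62. Itgae rose by 5.73 in WT and 5.14 in KO, Pmepa1 by 3.82 and 3.15, and Nt5e by 5.45 and 5.38, and none of these differences was called (adjusted p = 0.667, 0.16 and 0.941). The 5 smallest p-values of the difference belonged to Gpr183, N4bp1, Pros1, Rragd and Slc31a2. Gpr183, an oxysterol receptor of migrating lymphocytes, had a log2 change of 0.65 in WT, called without library 62 (adjusted p = 0.0092), and -1.84 in KO, and Rragd, a GTPase of amino acid sensing, 1.03 and 3.11 (adjusted p of the difference 0.0114 for both).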

How the data were processed

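The values are the authors' raw gene counts, deposited without normalisation for 30 libraries and 55573 genes. The submitters' processing notes name STAR, Trim Galore, FastQC, DESeq2 1.24.0 and the build GRCm38. How reads were counted, and whether by strand, is not given in the sources used here. Overlapping genes, antisense genes and paralogs are therefore uncertain. Per the labels' protocols, libraries were made with a directional kit after polyA selection. Symbols and GRCm38 coordinates came from GENCODE, and 93 genes had no symbol. All 30 libraries were fitted together with edgeR 4.0.16 (quasi-likelihood test, 6 groups, TMM scaling, R 4.3.3) after edgeR's filter at a minimum count of 10. A gene was called at an adjusted p below 0.05. CPM values used TMM-scaled library sizes, and sums over marker lists of other cell types used library totals. DESeq2 1.42.0, limma 3.58.1 (voom) and other settings were tried as alternatives, and the test was checked on simulated data. Genes were named by a rule: a key list, the 10 largest called rises and falls at a mean of at least 4 CPM, up to 4 called members per list and direction, every member of the 3 TGFB lists, and the 5 smallest p-values of the WT and KO difference. The gene lists and this rule were chosen with earlier results of these data known. Intervals and floors of 3 counts cover counting error only. Some genes that the rule names are not reported here.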

Additional observations from a re-analysis of the deposited data

Results flagged for a closer look

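A library far from the other 4 of its group, by Dixon's test at 95%, was found in 35 of 326 pairs of a named gene and a group with a level of at least 1 CPM. Since all genes were measured in the same libraries, no chance rate is set against these 35 pairs. Library 62 with TGFB1 was the high one in 16 of them: Bcl2 at 180.0 CPM, Btla at 103 CPM, Cdk6 at 145 CPM, Gbp5 at 206 CPM, Gm17767 at 17.7 CPM, Gzmb at 167 CPM, Ifng at 23.7 CPM, Il2ra at 867 CPM, Irf4 at 608 CPM, Metrnl at 14.1 CPM, Osm at 24.6 CPM, Pa2g4 at 507 CPM, Slc7a5 at 559 CPM, Tgm1 at 3.25 CPM, Tnfsf8 at 102 CPM and Trib3 at 90.2 CPM. In the other libraries with TGFB1, Zbtb7b at 17.7 CPM was low in 67 and Dusp4 at 79.2 CPM was low in 71. Among the libraries without cytokine, 71 was high for Cxcr3 at 5.89 CPM, Itgae at 7.30 CPM, Klf2 at 154 CPM, S1pr1 at 61.1 CPM, Tcf7 at 508 CPM and Tgfbr2 at 60.8 CPM, and low for BC035044 at 4.0 CPM, Itih5 at 12.7 CPM, Tgfb1 at 217 CPM and Tnfsf8 at 118 CPM. Library 62 without cytokine was high for Ccr6 at 1.56 CPM, Il2 at 5.12 CPM, Pdgfb at 8.45 CPM and Pfkp at 684 CPM. Bmf at 14.5 CPM was high in library 72 and Crebbp at 22.8 CPM and Pros1 at 27.6 CPM in library 75, both without cytokine.

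By edgeR's test of the difference itself, the TGFB1 response differed between WT and KO cells in 387 of 11718 tested genes (3.3%). Among the 170 named genes it differed in 17. Those called in all 20 fits without 1 library were, as the log2 response of WT minus that of KO, Btg1 (0.531), Gpr183 (2.49), Id3 (1.86), N4bp1 (-0.709), Pros1 (-1.84), Rragd (-2.08), Slc31a2 (-1.29) and Smad2 (-0.511). Those that lost the call in at least 1 of the 20 fits were Elovl6 (-1.01), Il18r1 (1.79), Il2ra (-1.25), Il4ra (-0.908), Nrp1 (1.11), Pdcd1 (1.13), Serpinb9 (1.53), Sqle (-0.733) and Tgif1 (0.522). Gpr183 and Id3 fell with TGFB1 in KO cells, by 1.84 and 2.16, and were not called in WT cells, at 0.65 and -0.30. N4bp1, Pros1, Rragd and Slc31a2 rose in KO cells, by 0.88, 1.25, 3.11 and 1.70. The naming rule took in these genes and Gpr183 by the smallest p-values of this same test, so their calls follow from that choice.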

How the results depend on the processing

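The count of genes called with TGFB1 was within 1.5 times of 4439 under every alternative tried. It was lowest at 3668 with the 10 libraries fitted alone and highest at 4912 with a replicate block, and ran from 3523 to 5373 with 1 library left out at a time. The count changed at least 2-fold moved from 718 to 421 with a minimum count of 50, which tests fewer genes, and was 567 to 916 under the other settings and 632 to 998 with 1 library left out. The count for TGFB1 against IL12 was 5484 to 6547, and 5440 to 6706 with 1 library left out. The difference between the WT and KO responses moved most: it called 774 genes with DESeq2, 1250 with females alone and 1073 with a replicate block, and 58 to 2155 with 1 library left out, and the cause was not tested. The difference in the ribosomal protein share was 1.07 to 1.39 percentage points and that in the mitochondrial share 0.135 to 0.329 with 1 library left out. Of 156 named genes that were called, 142 kept their call in all settings in which they were tested, 14 lost it in at least 1, and 0 changed sign. Libraries with the same number were not treated as paired, because the labels do not say what a number stands for. The deviations of same-numbered libraries correlated at 0.369 for 62, 0.0992 for 67, 0.382 for 71, 0.178 for 72 and 0.238 for 75. Of the 5 libraries with TGFB1, 4 correlated best with their own number. Whether a number is a shared source was not tested. With the number as a block, the calls went from 4439 to 4912, and those of the WT and KO difference from 387 to 1073. Depth limits genes near 0 counts without cytokine, whose folds rest on a few counts.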
